A study of Mus musculus with 30 samples.

Results

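The prohormone pro-opiomelanocortin (Pomc), the enzymes that cut and trim it, and the proteins of the granules that store its products were followed in AtT-20 cells. They were found by their names in the annotation of the arrays. The names were pro-opiomelanocortin, proprotein convertase subtilisin/kexin, carboxypeptidase E, chromogranin, secretogranin, secretory granule and VGF. This gave 20 of the 22830 gene spots, for 14 genes, of which 9 spots were above the intensity limit on all 30 arrays. No spot was named for the convertase Pcsk1 itself, so the enzyme that makes most of the ACTH in corticotropes was not measured here.

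AtT-20 is a mouse corticotrope pituitary tumour line, a clonal culture rather than a tissue. All cells had been kept without fetal calf serum before the experiment. Cells treated with 100 nM human/rat CRH were compared with untreated cells at 1, 3, 6, 12 and 24 h. At each time point 1 RNA extract of each kind was hybridised together on 6 two-colour cDNA arrays, 3 with the CRH sample in Cy3 and 3 with it in Cy5. The 6 arrays are technical replicates, so tests over the 30 arrays measure the spread between hybridisations. Each time point rests on 1 pair of extracts, so tests of the CRH effect take the 5 time points as their n. A log2 ratio above 0 means more signal from the CRH-treated cells. The intensity limit was the 10th percentile of each channel, and 14375 gene spots passed it on all arrays. The median spot of an array had a raw intensity of 482 to 1491 in Cy3 and 552 to 2175 in Cy5.

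Corticotropes answer CRH through its receptor CRHR1, which raises cAMP inside the cell. POMC is made as a long precursor, cut by prohormone convertases in the secretory granule into ACTH and other peptides, and trimmed at the cut ends by carboxypeptidase E. Chromogranins and secretogranins are acidic proteins that pack the granule core, and 7B2 and proSAAS are small partners that hold the convertases inactive until the granule matures.

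The spots of this pathway differed widely in brightness, so the values below do not carry equal weight. The Pomc spot was among the brightest, at a median percentile of 94.97 of all gene spots in the untreated channel (range over 30 arrays 85.2 to 98.2). A spot for Cpe (carboxypeptidase E, spot 14642) stood at 98.4, the bright Scg2 spot (secretogranin II, spot 4926) at 94.2 and the Scg5 spot (7B2) at 86.8. All 4 convertase spots were dim on some arrays, with medians from 6.77 for Pcsk4 to 36.1 for Pcsk2. Brightness depends on the cDNA clone as well as on the transcript, so these ranks show how well a spot could be read and do not order the genes by expression.

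**Figure D1:**
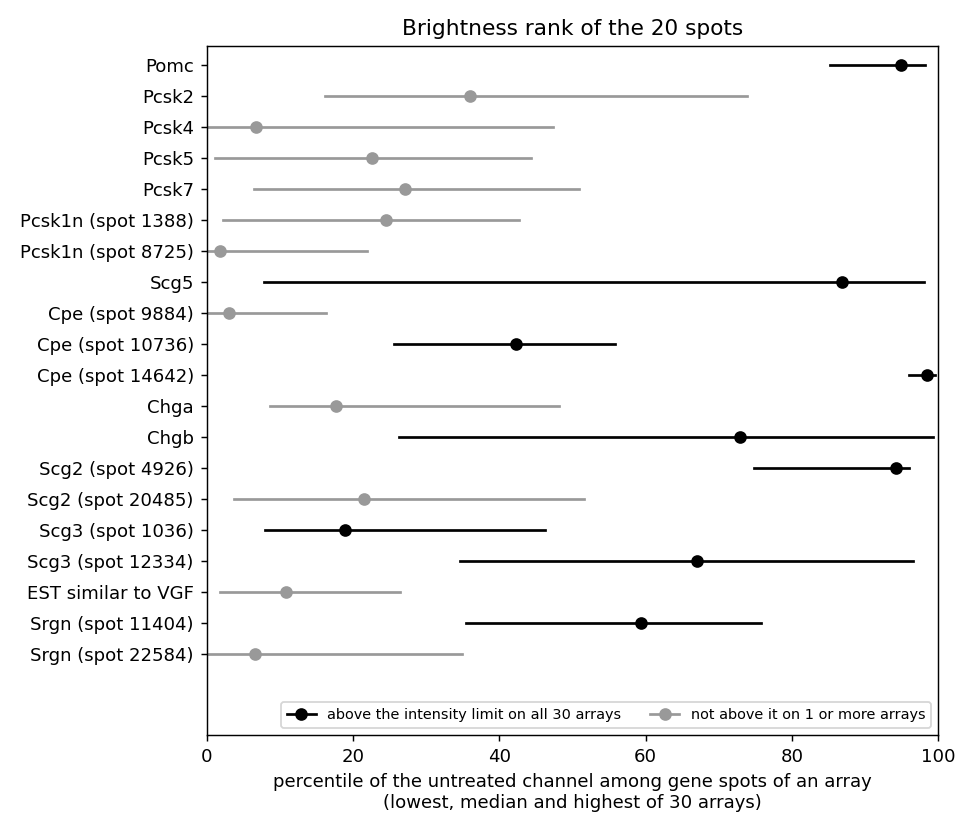
Rank of the 20 spots in the untreated channel, as a percentile of the gene spots of an array on the horizontal axis; the point is the median and the line the range over 30 arrays. The 9 black spots were above the intensity limit on every array, and all convertase spots (grey) were not.

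RefSeq promoters (mouse build GRCm38.p6, from 250 bases before to 50 bases after the gene start) were found for 12 of 15 genes, the 14 genes above and Pcsk1. They are shown because CRH acts through cAMP and the cAMP response element is the letters TGACGTCA, searched on both strands. The full element stood in the promoters of 3 genes, Chgb, Scg2 and Pcsk1, and in 1.79% of all 32851 promoters of this length (2.03% of 27025 genes). Its core TGACG, which the full element includes, was in a promoter of 8 of the genes, among them Chga and 1 of the 2 promoters of Srgn, and in 20.8% of all promoters (23.05% of genes). The Pomc promoter held neither within these 300 bases, and its stretch is given around TATAAA, which 13.6% of all promoters hold on either strand. The study describes a cAMP-responsive element and an AP-1 site in the Pomc promoter. The search here finds only exact letters within the 300 bases, so it does not show that Pomc lacks such an element. A match is a run of letters and was not tested for binding. Capitals mark the match in each stretch, written 5′ to 3′ along the gene's strand.
Pomc, plus strand, chr12:3954894-3954951: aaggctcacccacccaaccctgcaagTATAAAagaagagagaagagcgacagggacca
Chgb, plus strand, chr2:132781544-132781603: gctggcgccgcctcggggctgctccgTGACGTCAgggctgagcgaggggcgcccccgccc
Scg2, minus strand, chr1:79440061-79440120: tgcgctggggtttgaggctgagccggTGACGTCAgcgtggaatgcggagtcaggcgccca
Chga, plus strand, chr12:102554871-102554927: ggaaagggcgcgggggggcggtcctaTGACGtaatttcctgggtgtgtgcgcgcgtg
The element lay 72 bases before the gene start in Chgb and 68 bases before it in Scg2, and the core lay 44 bases before it in Chga. These 3 genes are granins, and their measured ratios follow below.

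Pomc, the precursor of ACTH (chr12:3954945-3960643), was higher in the CRH-treated cells on all 6 arrays at 3 h and at no other time point. At 3 h the log2 ratio ran from 0.13 to 0.84 with a median of 0.34, a mean of 0.39 ± 0.28 (SD, n = 6 arrays), or 1.31-fold. At 1 h the ratio lay lower, from -0.45 to 0.16 with a mean of -0.18 ± 0.25. All 6 arrays were above 0 at 3 h for 1 of these 9 spots, Pomc, and for 665 spots, 4.63% of all spots tested.

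The later ratios of Pomc were smaller or depended on the dye. At 6 h the 3 arrays with CRH in Cy3 gave 0.35 to 0.49 and the 3 with CRH in Cy5 gave -0.59 to -0.29, so that the mean was -0.026 ± 0.48. The orientations did not overlap at 1, 3 or 6 h, and the Cy3 arrays were the higher at each. At 12 h the mean was 0.17 ± 0.17, with 5 of 6 arrays above 0. At 24 h it was 0.19 ± 0.21, again with 5 of 6 arrays above 0, and at both late times the orientations overlapped.

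In the linear model with time and dye orientation over 30 arrays, the Pomc spot had an interaction of time with dye-swap (p = 0.00304, n = 30 arrays), which in the procedure of the study sets a spot aside. Without the interaction term, Pomc changed over time (p = 0.00145, n = 30 arrays, Benjamini-Hochberg adjusted 0.0333 over all spots). The difference between 3 h and 6 h, which were quantified on the same day, was 0.42 on the log2 scale (p = 0.00175, n = 12 arrays, adjusted 0.154). With 1 loess curve per array in place of a curve per block the interaction p was 0.531 and the time p 0.0759, while the mean at 3 h stayed near its value, at 0.41, and that at 6 h moved to 0.12.

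**Figure D2:**
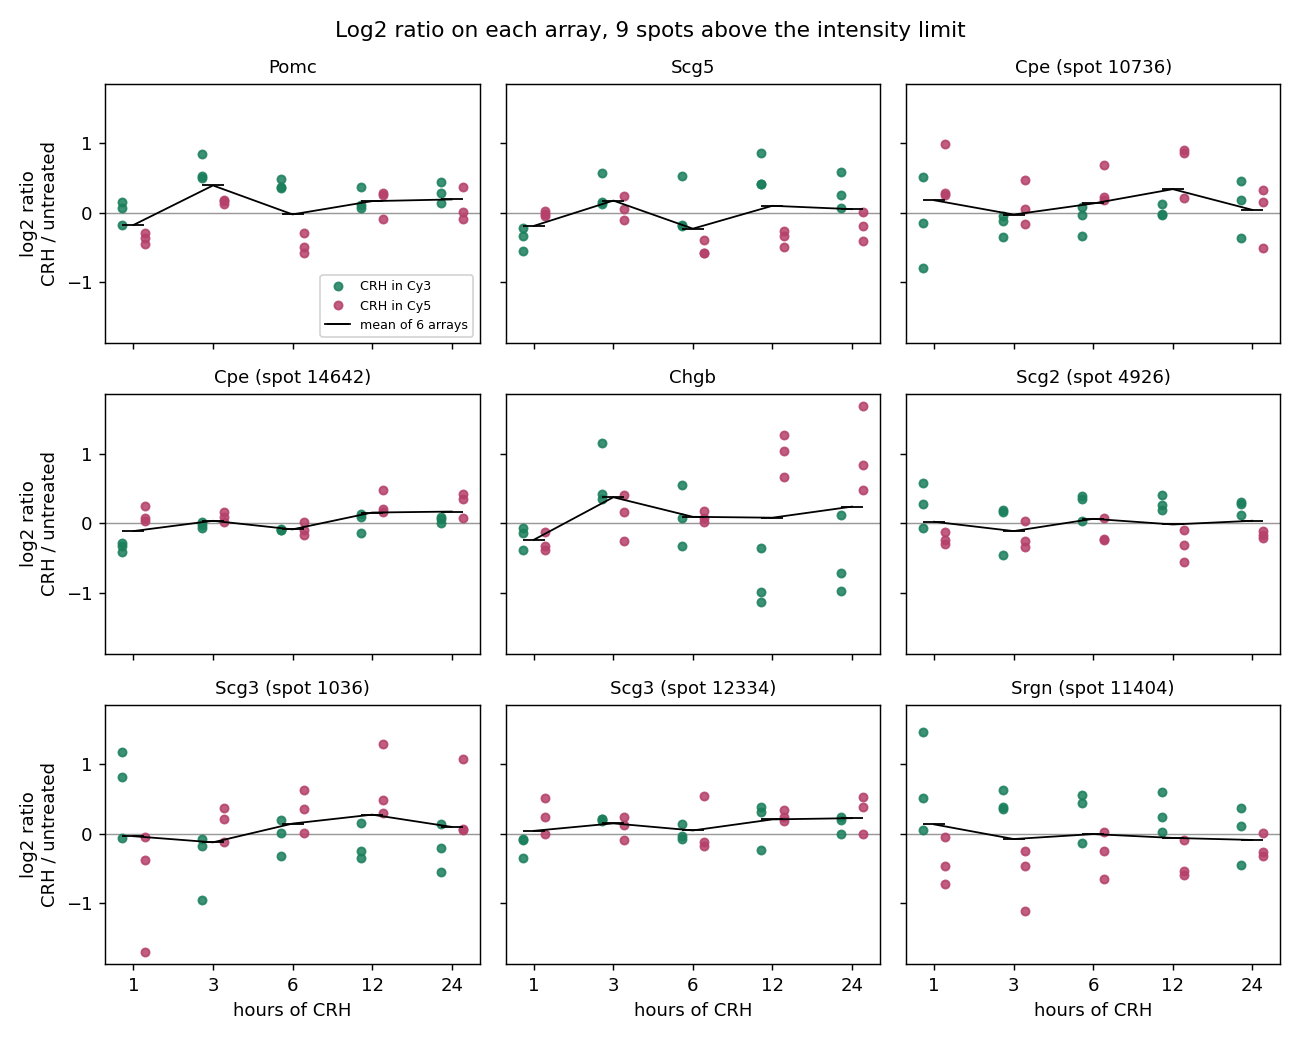
Log2 ratio of CRH-treated over untreated cells on each array (vertical axis) against hours of CRH, for the 9 spots above the intensity limit; green points have CRH in Cy3, red points in Cy5, and the black line joins the means of 6 arrays. Pomc is above 0 on all arrays at 3 h, and the colours part in opposite ways at 12 and 24 h for Chgb and for Scg5.

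The convertases were measured only by dim spots, so their ratios are given without a test. Pcsk2, which cuts ACTH further into smaller peptides in other pituitary cells (chr2:143546133-143816284), was above the limit on 28 of 30 arrays. Over the 5 time points in order its mean log2 ratios were -0.14, -0.18, -0.058, -0.18 and 0.078, with SDs from 0.24 to 0.51. Pcsk7, a widely expressed convertase of the trans-Golgi network, ranged from -0.046 at 6 h to 0.25 at 1 h and was above the limit on 28 arrays. Pcsk5 was above it on 21 arrays and had means from -0.67 at 12 h to 0.46 at 24 h, the widest span of the 4. At 24 h its untreated signal had a median percentile of 3.47, and at both of these times some arrays were not above the limit. Pcsk4, an enzyme of germ cells, was above it on 11 arrays, and at 24 h its arrays ran from -3.32 to 6.23, so that the spot carried no usable ratio.

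The partners of the convertases gave 1 readable spot. Scg5 encodes 7B2, which binds Pcsk2 and keeps it inactive on its way to the granule (chr2:113776313-113829091). Its log2 ratio at 3 h ran from -0.10 to 0.57 with a mean of 0.17 ± 0.23 (SD, n = 6 arrays), and at 6 h from -0.59 to 0.53 with a mean of -0.23 ± 0.41. The orientations did not overlap at 1, 6, 12 and 24 h, and at 12 h the Cy3 arrays lay between 0.41 and 0.86 against -0.50 to -0.26 for Cy5. The interaction of time and dye-swap had p = 0.00113 (n = 30 arrays). Both spots of Pcsk1n, the gene of the Pcsk1 inhibitor proSAAS, were dim, above the limit on 27 and 0 arrays. The spot above it on 27 arrays had means between -0.12 and 0.052 at all times.

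Cpe removes basic residues from the ends left by the convertases (chr8:64592542-64693109), and its 3 spots did not give the same picture. Spot 14642, one of the brightest on the arrays, had means over the 5 time points in order of -0.11 ± 0.27, 0.033 ± 0.082, -0.090 ± 0.063, 0.15 ± 0.20 and 0.17 ± 0.17 (SD, n = 6 arrays each). It changed over time with no interaction at p under 0.01 in the linear model (time p = 0.00196, adjusted 0.0402, interaction p = 0.0238, n = 30 arrays). Its orientations still did not overlap at 1 h and 12 h. At 1 h the Cy3 arrays lay between -0.42 and -0.29 and the Cy5 arrays between 0.037 and 0.25. Its Cy5 signal reached the scanner limit on 7 arrays, which left 4 arrays below the limit at 12 h and 1 at 24 h. On the 3 arrays of 24 h with CRH in Cy3 the channel at the limit was the untreated one, so a cut signal there raises the ratio (0.0029 to 0.094 on these arrays). Where CRH was in Cy5 the channel at the limit was that of the CRH sample, which lowers it. The late ratios of this spot, and the test over time, rest in part on such signals. The time p was 0.237 with the day of quantification as a block, 0.0196 with 1 loess curve per array, 0.0133 without replicate 1 and 0.0133 without replicate 3 (n = 30 arrays before any was left out).

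The less bright Cpe spot 10736 had its highest mean at 12 h, 0.34 ± 0.43, with 4 of 6 arrays above 0, and no change over time by the same test (p = 0.506, n = 30 arrays). At 12 h its Cy3 arrays ran from -0.040 to 0.12 and its Cy5 arrays from 0.21 to 0.89. The orientations of this spot did not overlap at 6 h either. Across the 30 arrays, after each orientation's mean was taken off, the ratios of these 2 spots had r = 0.051, and their means had the same sign at 2 of 5 time points. The third spot, 9884, was above the limit on 1 array and its arrays spread over several log2 units at every time point. The Cpe values therefore belong to the spot, and no value for the gene was formed from them.

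The granins, which build the dense core of the granule, gave 5 readable or partly readable genes on the arrays, Chgb, Scg2, Scg3, Chga and an EST similar to Vgf. Chgb, chromogranin B (chr2:132781642-132795079), was below 0 on all 6 arrays at 1 h, from -0.39 to -0.069 with a mean of -0.24 ± 0.14 (SD, n = 6 arrays). At 3 h its ratio ran from -0.25 to 1.15 with a mean of 0.37 ± 0.46 and 5 of 6 arrays above 0. At 12 h the Cy3 arrays ran from -1.13 to -0.36 and the Cy5 arrays from 0.66 to 1.26, and at 24 h the orientations parted in the same way, so that the means of 0.078 and 0.24 stand between separate groups of arrays. The interaction of time and dye-swap was the strongest of the 9 spots, p = 7.21e-05 (n = 30 arrays).

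The Chgb spot also lost most of its brightness part way through the series, in both channels. On the 13 arrays of 1 h, 3 h and replicate 1 of 6 h, its untreated intensity ran from 11421 to 39647 with a median of 24953, and its CRH intensity had a median of 26105. On the other 17 arrays the untreated intensity ran from 324 to 5033 with a median of 1236, and the CRH intensity had a median of 1366. With each array centred on its median spot, the later arrays were lower by a log2 value of -4.41, the lowest of all 14375 spots tested, and 8 spots in all fell to -2 or below while 2 rose to 2 or above. The boundary was placed after the values were seen. Pomc moved by -0.18 over the same boundary. Scg3 spot 12334 had the largest rise of the readable spots, 0.97, at rank 14121 from the lowest. Whether these shifts in brightness bear on the ratios of Chgb or of Scg3 spot 12334 was not tested.

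**Figure D3:**
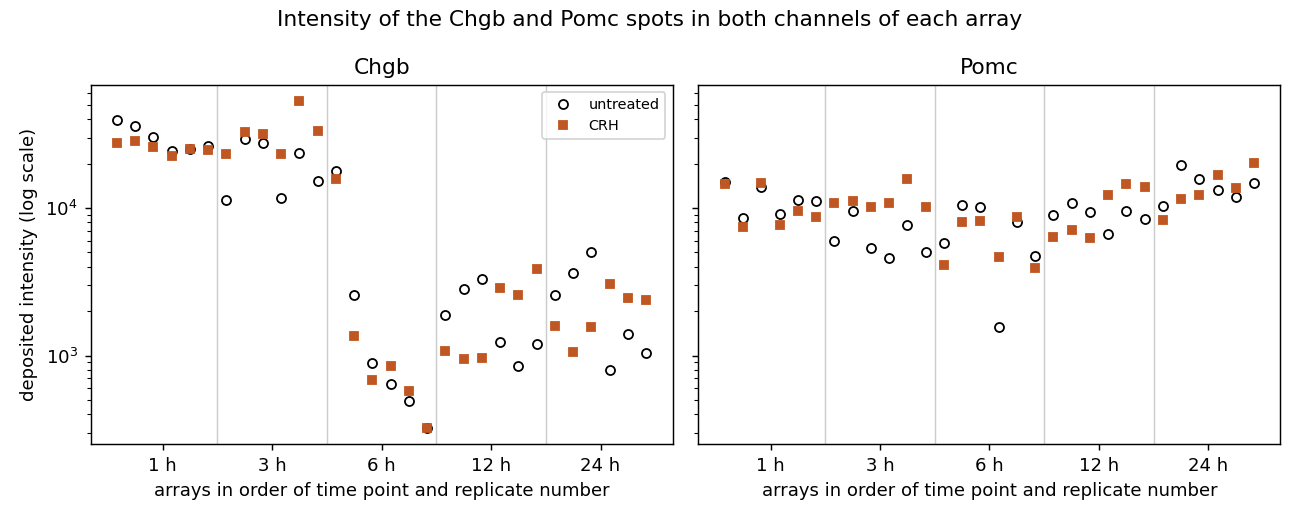
Deposited intensity (log axis) of the Chgb and Pomc spots in the untreated channel (open circles) and the CRH channel (squares) of each of the 30 arrays, in order of time point and replicate number. Chgb falls in both channels between replicates 1 and 2 of 6 h, from medians of 24953 and 26105 to 1236 and 1366, and Pomc does not.

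Among the other granins, the bright spot of Scg2, secretogranin II (chr1:79434366-79440026), had means from -0.11 at 3 h to 0.062 at 6 h, and at 12 h its arrays ran from -0.55 to 0.40 with a median of 0.047. Its Cy3 arrays had the higher mean at all 5 time points, and the orientations did not overlap at 1, 12 and 24 h. The second Scg2 spot, 20485, was dim and had means from -0.093 at 12 h to 0.31 at 24 h. Scg3, secretogranin III, which binds chromogranin A to the granule membrane (chr9:75643366-75685959), had 2 readable spots. Spot 12334 had a mean above 0 at all 5 time points, from 0.040 at 1 h to 0.22 ± 0.21 at 24 h, where 4 of 6 arrays were above 0. Spot 1036, at a median percentile of 18.97, ranged from -0.12 at 3 h to 0.27 at 12 h, and over the 30 arrays the ratios of the 2 spots had r = -0.41 after each orientation's mean was taken off.

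Chga, chromogranin A (chr12:102554941-102565027), had a dim spot, above the limit on 28 arrays. At 1 h its arrays ran from -0.12 to 1.15 with a median of 0.72 and a mean of 0.60 ± 0.51 (SD, n = 6 arrays), 1.51-fold, and 5 of 6 were above 0. At the later time points its means lay between -0.23 at 6 h and 0.25 at 12 h, and the orientations overlapped at each. The EST similar to rat VGF, a granin induced by nerve growth factor, was above the limit on 17 arrays and had means from -0.26 at 1 h to 0.28 at 12 h. Srgn, serglycin, a proteoglycan of the granules of blood cells (chr10:62493833-62527445), had a readable spot with means from -0.091 at 24 h to 0.13 at 1 h and a second spot above the limit on 9 arrays.

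The readable spots were then compared with the whole array, where the question was whether any moved with CRH or with time. An interaction of time and dye-swap passed p under 0.01 for 4 of the 9 spots, Pomc, Chgb, Scg5 and Scg3 spot 1036, against 14.8% of all spots. Of the 5 spots without an interaction 1 changed over time, Cpe spot 14642, against 8.27% of such spots. With the interaction left out of account, 2 of the 9, Pomc and Cpe spot 14642, had an adjusted time p under 0.05, against 5.88% of all spots. None of the 9 reached a mean of 1.5-fold with all 6 arrays on 1 side of 0 at any time point, against 0.403% of all spots higher and 0.174% lower with CRH at 1 or more time points. Among the 45 means of 9 spots at 5 time points, the lowest was -0.24 and the highest 0.39, and in 21 the orientations did not overlap, against 42.3% of the means of all spots.

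Averaged over the 5 time points, no spot of this pathway differed from 0 by limma with Benjamini-Hochberg adjustment (0 of 9, against 0.0557% of all spots, 8 spots). At an unadjusted p under 0.05 there was 1 spot, Scg3 spot 12334, against 5.38% of all spots. Its CRH effect was 0.13 on the log2 scale, or 1.10-fold (95% interval 1.01 to 1.19), with 5 of 5 time points above 0 and an adjusted p of 0.909 by limma. The effect of Pomc was 0.11, or 1.08-fold (0.966 to 1.20), with 3 of 5 time points above 0 and an adjusted p of 0.952 by limma. Chgb had 0.11 (0.963 to 1.21 fold), Cpe spot 10736 0.13 (0.998 to 1.20 fold) and Cpe spot 14642 0.030 (0.932 to 1.12 fold). The lowest interval was that of Scg5, from 0.891 to 1.09 fold around an effect of -0.020. All 9 intervals lay within 0.891 and 1.21 fold, and they speak for the mean over the 5 time points, not for a change at 1 of them. The median effect was 0.071 over the 9 spots and -0.0074 over all 14375. A trend with log2 hours was found for 0 of 9 spots by limma, against 0% of all spots, and for 0 of 9 at an unadjusted p under 0.05, against 7.15%.

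**Figure D4:**
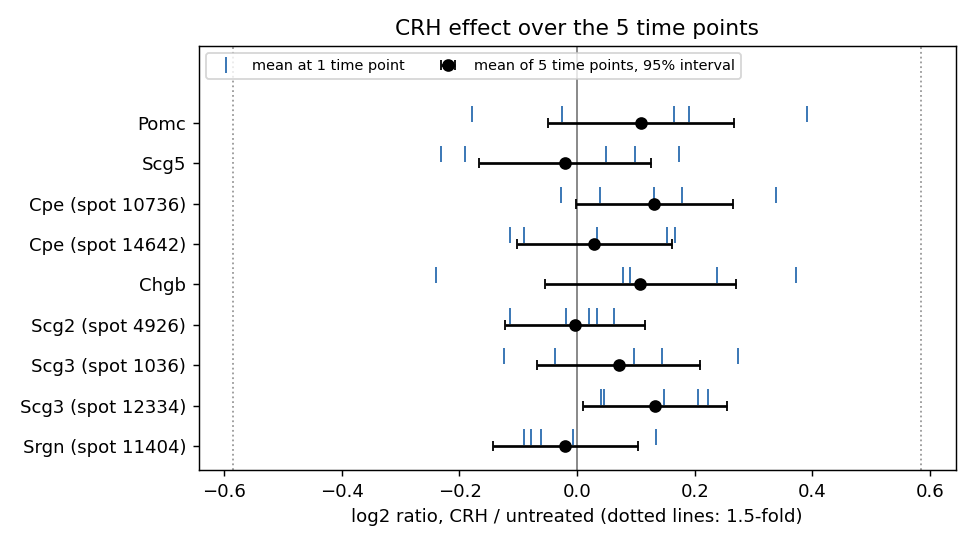
CRH effect on the log2 scale (horizontal axis) for the 9 readable spots: black points are means over 5 time points with 95% intervals by limma, blue ticks the means of single time points, and dotted lines mark 1.5-fold. Every interval lies inside the dotted lines, and only that of Scg3 spot 12334 leaves out 0.

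The other genes of regulated secretion were taken from a list of 30 granule and exocytosis genes, of which 23 had a spot and 13 at least 1 readable spot (18 spots, 3 of them the Scg3 and Scg5 spots above). Here 2 spots had an adjusted p under 0.05 for the CRH effect, against 0.0557% of all spots. Both belong to Syt4, synaptotagmin 4, a vesicle protein whose gene is induced by cAMP. The list was drawn up with earlier results of these data known, so this count is not a test of granule genes as a set. Syt4 spot 6751 had a CRH effect of 0.59 ± 0.068 (SE, n = 5 time points), with an adjusted p of 0.00237 by limma. Syt4 spot 15969 gave 0.55 ± 0.065, with means over the 5 time points in order of 0.69, 0.64, 0.43, 0.67 and 0.34 and the same adjusted p. The third readable Syt4 spot, 12034, stood at -0.019 ± 0.055, so the spots named for this gene differ. Interactions passed p under 0.01 for 6 of the 18 spots, against 14.8% of all spots. The median CRH effect of the list was 0.0056.

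The factors that act on Pomc in corticotropes formed a list of 26 genes, with 21 spotted and 15 readable on 21 spots. None of these spots passed the test of the CRH effect (0 of 21, against 0.0557% of all spots). At an unadjusted p under 0.05 there were 3, against 5.38% of all spots. Neurod1, a corticotrope transcription factor that binds the Pomc promoter, had mean log2 ratios of 0.27 and 0.21 on its 2 spots at 1 h and of -0.73 and -0.54 at 3 h. At 24 h its spots gave -0.57 and -0.61, and the CRH effects were -0.40 ± 0.11 and -0.31 ± 0.095 (SE, n = 5 time points, adjusted p 0.523 and 0.742 by limma). These effects average the positive means of 1 h with the negative means of later times. In the linear model the Neurod1 spots had a time p of 4.7e-06 and 6.6e-05 (n = 30 arrays). A spot of Prkar1a, a regulatory subunit of protein kinase A (spot 22939), had 0.20 ± 0.060, with an adjusted p of 0.742 by limma, and the other 3 Prkar1a spots ranged from -0.053 to 0.091. Interactions were present for 5 of the 21 spots, against 14.8% of all spots, among them those of Pitx1, Gnas and both of Neurod1. The Gnas spot also belongs to the list of granule and exocytosis genes and is counted in both. Crem encodes cAMP-inducible repressors. Its spot 2781 was above the limit on 28 of 30 arrays, so it counts as dim and was not tested. The means of this spot were 1.74 at 1 h and 1.03 at 3 h. It reached 1.5-fold with all 6 arrays on 1 side of 0 at 3 time points. Its median percentile was 33.2, close to the 36.1 of the readable Crem spot 7301, which stood at -0.21 and 0.19. The study has the dim spot among its candidates and reports a rise of Crem by qRT-PCR in independently treated cells.

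Marker spots were read for brightness only, which depends on the clone and does not establish which cells were present. Of the corticotrope factors, Pitx1 stood at a median percentile of 98.4, the 2 Neurod1 spots at 97.3 and 82.1 and Tbx19 at 39.3, and no spot was named for Crhr1. The broadly expressed glucocorticoid receptor Nr3c1 stood at 92.0. Of 13 genes of other pituitary lineages Gh and Gata2 were found by name, at 25.9 and 71.1. The 18 spots of fibroblast and matrix genes reached at most 64.4. The 9 leukocyte spots ranged from 9.07 to 89.0, the highest that of Cd3e, which had a mean of 0.60 at 24 h, followed by Itgam at 87.5 and a Cd4 spot at 78.8. None of the spots in these 3 lists had an adjusted p under 0.05 for the CRH effect by limma (0 of 2, 0 of 8 and 0 of 5). At an unadjusted p under 0.05 there was 1, of Col1a2, against 5.38% of all spots.

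The ratios most like those of Pomc across the 30 arrays came from outside the granule genes. After each orientation's mean was taken off, the 5 named spots with the highest r were neuroblastoma myc-related oncogene 1 (0.83), ribosomal protein L19 (0.83), interferon regulatory factor 3 (0.82), ribosomal protein S17 (0.82) and ribosomal protein S8 (0.81). These spots were chosen by this r over the same arrays, so a time course and dye pattern like those of Pomc follow in part from the choice. Their means lay below 0 at 1 h and between 0.28 and 0.38 at 3 h. All 5 had an interaction of time and dye-swap with p under 0.01, against 14.8% of all spots. They were spotted in blocks 30, 7, 1, 46 and 19, and Pomc in block 46. Within the pathway the highest likeness to Pomc was that of Chgb, r = 0.52, followed by Cpe spot 14642 at 0.34, Scg5 at 0.30 and Scg3 spot 12334 at 0.28. These r stood at percentiles 97.2, 89.9, 87.6 and 86.4 among all spots tested. The remaining readable spots ran from -0.25 for Scg2 spot 4926 to 0.0071 for Cpe spot 10736, against a median of -0.023 over all spots. These correlations are descriptions over arrays that share extracts and days.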

How the data were processed

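Each sample was a two-colour cDNA array of 24192 spots in 48 blocks. The authors quantified both channels with a fixed circle, and the deposited intensity is on a linear scale with no normalization. Empty spots (1170) and control spots (192) were left out. From the intensities, log2 ratios of CRH over untreated were computed, with a loess curve in each block (span 0.75), and dim members were read off the same curves. The authors also deposited a table of normalized log2 ratios of 12593 spots, used as an alternative only. It correlated at 0.979 to 0.992 with the ratios used here, needed no turn of sign, and its column medians ran from -0.014 to 0.016.

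Interaction and time were tested by a linear model over 30 arrays (p under 0.01). The CRH effect and the trend with log2 hours were tested with limma 3.58.1 in R 4.3.3 on the 5 time-point means of 6 arrays, in which the dye orientations are balanced (adjusted p under 0.05, Benjamini-Hochberg). The 3 h and 6 h arrays were quantified on 1 day, 1 h on another, 12 h on 2 days (4 and 2 arrays) and 24 h on the last, so time can be compared within a day only for 3 h against 6 h and for 24 h against 2 arrays of 12 h, both with CRH in Cy5. The scripts were tested on simulated data. All member spots were named. Of each list, up to 3 readable genes with the largest CRH effect and every gene past a test or the size rule could be named, and so could the 5 named spots most like Pomc. The members and lists were chosen with earlier results of these data known. Spots named for the list genes were matched by their array names. The number of arrays limits the precision. Clone identity could not be checked from these files, and the authors sequenced selected clones only.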

Additional observations from a re-analysis of the deposited data

Results flagged for a closer look

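Among 45 groups of 6 arrays (9 readable spots at 5 time points), 3 held an array far from the other 5, and chance alone marks about 1 group in 20. Scg3 spot 12334 had a log2 ratio of -0.086 on replicate 6 at 3 h, where the other arrays ran from 0.13 to 0.24, and -0.24 on replicate 1 at 12 h, where the others ran from 0.18 to 0.39. Scg5 had 0.53 on replicate 1 at 6 h, where the others ran from -0.59 to -0.18.

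The CRH ratio differed between time points for 2 spots in the linear model over 30 arrays, Cpe spot 14642 (p = 0.00196, n = 30 arrays) and Pomc (p = 0.00145, n = 30 arrays). In the same model Pomc had an interaction of time and dye-swap (p = 0.00304, n = 30 arrays). The Cy5 signal of Cpe spot 14642 was at the scanner limit on 7 arrays. With interactions left out of account, 5.88% of all spots had an adjusted time p under 0.05.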

How the results depend on the processing

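No alternative gave a member spot an adjusted p under 0.05 for the CRH effect or the trend, the leave-one-out settings included. The counts from the linear models were less stable. The number of spots with an interaction was 4, and it was 2 in the deposited table, which holds 5 of the 9 spots and not Pomc, 1 with hours fitted as a straight line, and 1 to 4 with each replicate number left out (1 without replicate 6, 2 without replicate 2 or 5). The number that changed over time was 1, and it was 2 with dim spots kept (Pcsk5 joined), 0 with 1 loess curve per array, 0 in the deposited table, 0 with the day of quantification as a block, 0 for 3 h against 6 h alone (these test time with 2 and 1 degrees of freedom in place of 4, and calls over all spots were 335 and 352 against 1013), and 0 to 2 with each replicate number left out (0 without replicate 3 or 4, 2 without replicate 2 or 6). With the replicate number as a replicate block the count was 1, and Pomc had a time p of 0.000798 (n = 30 arrays). The replicate numbers only name technical arrays: the mean r of same-numbered arrays ran from 0.233 to 0.327 over the 6 numbers, and that with other numbers of the same dye from 0.256 to 0.316. Pomc kept a time p of 0.00927 with the day as a block (n = 30 arrays). With dim spots kept, 1 mean passed the 1.5-fold rule, Chga at 1 h, at 0.61. Without the Chgb spot, an alternative added after the values were seen, the interaction count was 3.

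CRH effects near 0, none past the test, changed sign: Scg3 spot 1036 to -0.027 with the 10th percentile subtracted, and Scg5 to 0.033 with 1 loess curve. With each replicate number or time point left out in turn, Scg5 ran from -0.069 to 0.032, Scg2 spot 4926 from -0.020 to 0.024, Srgn spot 11404 from -0.060 to 0.019 and Cpe spot 14642 from -0.0047 to 0.065. All 161 alternative time-point means stayed within 1 SD of their values. That SD is over 6 arrays and includes the gap between dye orientations, so it leaves room for large shifts. With the 10th percentile subtracted, the mean of Scg3 spot 1036 at 1 h went from -0.037 to -0.62, within its SD of 1.01. The causes were not tested.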
